A study of Rattus norvegicus with 5 samples.

Results

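Metallothioneins and the genes that handle zinc with them were followed in cerebellar granule cells of the rat. The set held 7 genes, Mt1, Mt2A, Mt3, Mtf1, Slc30a1, Slc30a3 and Slc30a4, among 14217 genes with a symbol on the Affymetrix arrays. It was selected on measured values, because metallothionein signals fell with ICRF-193 in these same arrays, so the differences given here between treated and untreated cells describe the choice and do not test it. By gene symbol the set took 10 of 31042 Affymetrix probe sets and 9 of 20500 probes on the two-colour arrays. All 7 genes were expressed by the rule used here on their brightest probe set.

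Cells came from the cerebellum of Wistar rats 8 days after birth and were kept in serum with 25 mM KCl. Cultures were harvested after 1 day (D1) or 5 days (D5), and a further 5-day culture had ICRF-193 at 10 µM added daily (D5+). All cultures received cytosine arabinoside at 10 µM, an agent that stops dividing glia, from a medium change late on the first day, so that D1 cells had met it for the shortest time. ICRF-193 inhibits DNA topoisomerase II, an enzyme that untangles DNA by passing one duplex through another, and the study used it to remove topoisomerase IIβ from these postmitotic neurons. RNA was measured on 3 Affymetrix arrays, 1 per condition, and on 2 two-colour arrays, 1 of D5 (Cy5) over D1 (Cy3) and 1 of D5 (Cy5) over D5+ (Cy3). With 1 array per condition there was no replicate check, and no p-value is given. Of the listed granule neuron markers on the array, 11 of 11 were expressed, as were 10 of 10 microglial and 14 of 17 astrocyte markers and 10328 of all 14217 named genes, so this count does not set the cell types apart. Gabra6, a receptor subunit of mature granule cells, read 84.5 at D1, 962.7 at D5 and 686.4 at D5+. Array medians were 32.9 (D1), 29.2 (D5) and 28.0 (D5+) signal units.

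Metallothioneins are small cysteine-rich proteins that bind zinc and copper and buffer the free ion in the cytosol. Mt1 and Mt2A are made in many tissues and are induced by metals, glucocorticoids and oxidative stress, while Mt3 is largely a brain form. In the brain the first 2 forms are known mainly from astrocytes. Mtf1 is the zinc-sensing transcription factor that binds metal response elements upstream of metallothionein genes and of Slc30a1, the zinc exporter of the plasma membrane. Slc30a3 loads zinc into synaptic vesicles, and Slc30a4 carries zinc into endosomal and other intracellular vesicles.

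Mt1, Mt2A and Mt3 lie next to each other on rat chromosome 19, all on the minus strand. The sequences of the 250 bases before their annotated starts, and those before the start of Slc30a1, are shown because metal response elements there are what the family is known for. They are from RefSeq on GRCr8, 5′ to 3′ on the strand of the gene. Capitals mark the core letters searched, TGCACNC or TGCGCNC, on either strand, and no matches overlapped. The windows are chr19:10832976-10833225 (Mt1), chr19:10838709-10838958 (Mt2A), chr19:10856081-10856330 (Mt3) and chr13:106021769-106022018, plus strand (Slc30a1).
Mt1: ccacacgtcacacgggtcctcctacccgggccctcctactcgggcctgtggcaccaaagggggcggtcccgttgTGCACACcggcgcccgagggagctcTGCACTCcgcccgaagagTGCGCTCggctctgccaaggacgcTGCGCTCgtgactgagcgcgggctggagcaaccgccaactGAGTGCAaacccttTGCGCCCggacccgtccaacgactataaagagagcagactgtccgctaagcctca
Mt2A: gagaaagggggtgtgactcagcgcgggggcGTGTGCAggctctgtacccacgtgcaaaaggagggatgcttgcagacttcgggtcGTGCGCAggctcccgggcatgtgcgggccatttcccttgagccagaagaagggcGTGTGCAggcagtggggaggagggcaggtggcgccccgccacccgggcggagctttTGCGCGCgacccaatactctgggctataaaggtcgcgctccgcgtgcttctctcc
Mt3: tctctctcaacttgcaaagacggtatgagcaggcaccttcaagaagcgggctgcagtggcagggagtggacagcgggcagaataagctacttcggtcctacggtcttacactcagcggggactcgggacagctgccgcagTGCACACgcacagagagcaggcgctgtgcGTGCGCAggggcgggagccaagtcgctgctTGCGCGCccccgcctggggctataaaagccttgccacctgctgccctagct
Slc30a1: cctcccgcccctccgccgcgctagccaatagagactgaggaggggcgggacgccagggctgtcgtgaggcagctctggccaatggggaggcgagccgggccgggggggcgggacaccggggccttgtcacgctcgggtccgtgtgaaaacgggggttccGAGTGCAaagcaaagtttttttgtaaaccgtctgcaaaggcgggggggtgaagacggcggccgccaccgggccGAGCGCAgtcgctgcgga

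The Mt1 window held 6 core matches. As many or more were found in 8 of 33469 RefSeq promoter windows of the same length, or 0.0239%. The Mt2A window held 4, a number reached by 0.128% of windows, and the Mt3 window held 3, a number reached by 0.732%. Windows of Mtf1, Slc30a1 and Slc30a4 held 2 each, a number reached by 3.99% of windows, and that of Slc30a3 held 0. Mt4, the fourth gene of the cluster, a form known from stratified epithelium, had 1 match, and 20.6% of windows had at least as many. Windows rich in G and C hold these letters more often. Among 18496 windows with at least 50% G and C, 6.60% had 2 or more, 1.24% had 3 or more and 0.222% had 4 or more. In Mt1 and Mt2A the nearest match on the strand of the gene began at the same distance, 55 bases before the start. Such a match is a run of letters and not a measured site, and no binding data were among the files.

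**Figure D1:**
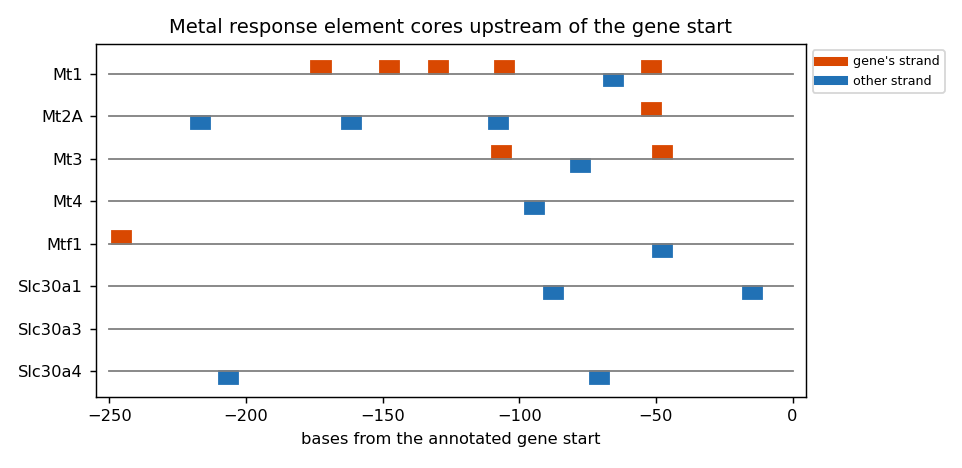
Positions of metal response element cores (coloured blocks) in the 250 bases before the annotated start of each gene, with distance from the start in bases on the horizontal axis; orange blocks above the line are on the gene's strand and blue blocks below it are on the other strand. Mt1 holds 6, Mt2A 4, Mt3 3, Mt4 1 and Slc30a3 0.

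Mt2A had the clearest inhibition among the members measured well above the floor. The floor is the 40th percentile of each array, 19.2 units on D1, 16.7 on D5 and 16.3 on D5+, below which a signal was not read as expression. Its signal was 487.5 at D1, 824.9 at D5 and 115.5 at D5+. It was thus highest in untreated cells at day 5 and lowest in treated cells, which lay below the day 1 cells as well. The D5/D1 ratio was 1.69-fold (log2 0.76), under the 2-fold boundary of induction used in the study. The D5+ signal was 7.14-fold lower than D5 (log2 -2.84) and 4.22-fold lower than D1 (log2 -2.08). Among 10328 expressed genes, 61 genes or 0.591% had a lower D5+/D5 ratio than Mt2A.

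Mt3 was the member that rose most in culture. Its signal was 85.7 at D1, 593.0 at D5 and 157.7 at D5+. The treated cells lay between the day 1 and the untreated day 5 cells, unlike the order seen for Mt2A. D5 was 6.92-fold above D1 (log2 2.79), and 138 expressed genes (1.34%) had a higher D5/D1 ratio. D5+ was 3.76-fold lower than D5 (log2 -1.91) and 1.84-fold above D1 (log2 0.88). By the study's boundaries of 2-fold for D5/D1 and 0.5-fold for D5+/D5, Mt3 was in group A1 (induced and inhibited), whereas Mt2A was in B1 (not past 2-fold in induction, inhibited). Both ratios of a gene share the D5 array, so an error in the D5 signal would enter both.

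Mt1 was near the floor at D5 and under it in the other conditions. Its only probe set with 1 symbol read 17.2 at D1, 21.0 at D5 and 1.1 at D5+. The D5 value alone was above its floor, so that no order of the D1 and D5+ signals can be given. With the signals under the floor set to it, D5 was at least 1.29-fold above D5+ and at least 1.09-fold above D1, and its deposited log2 D5+/D5 of -4.25 is not a measured size. A further probe set is annotated to several genes, Mt1 among them, and was assigned to none. It read 352.0 at D1, 598.3 at D5 and 86.8 at D5+, with log2 ratios of 0.77 for D5/D1 and -2.79 for D5+/D5. Whether probe sets of these closely similar genes also read each other's transcripts was not tested.

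**Figure D2:**
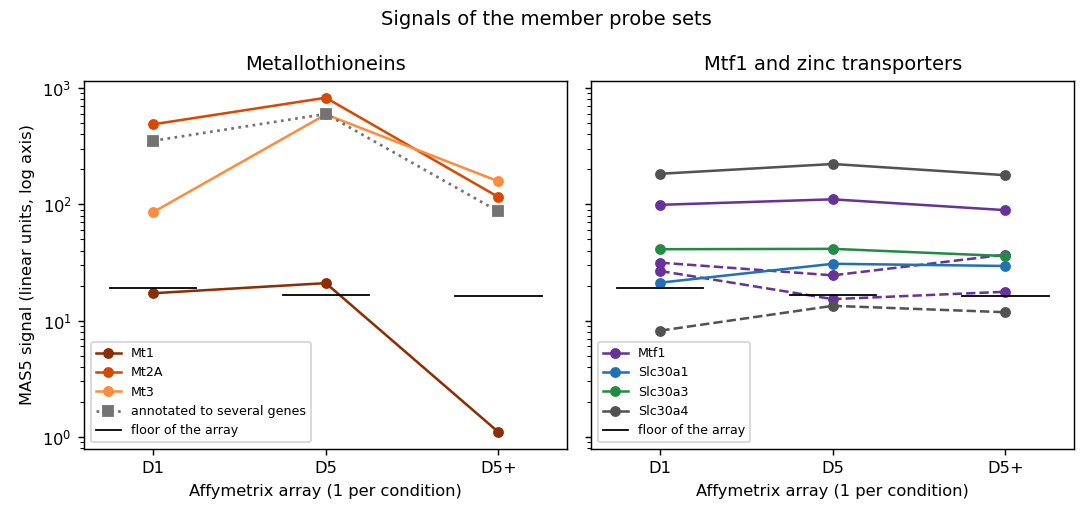
MAS5 signal (log axis, linear units) of each member probe set on the D1, D5 and D5+ arrays, 1 array per condition; solid lines are the brightest probe set of a gene, dashed lines its other probe sets, the dotted line a probe set annotated to several genes, and short black bars the floor of each array. Mt2A and Mt3 peak at D5 (824.9 and 593.0) and are at 115.5 and 157.7 in D5+, Mt1 is under the floor at D1 and D5+, and Mtf1 and the transporters stay within 2-fold.

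Mtf1, the metal sensor, differed little between conditions on its brightest probe set, which read 99.0 at D1, 110.4 at D5 and 89.1 at D5+ (log2 D5/D1 0.16, log2 D5+/D5 -0.31). The other probe sets went the other way in both ratios. One read 31.5, 24.5 and 36.9 in the same order (log2 -0.36 and 0.59). The last read 26.7, 15.3 and 17.7, with D5 under the floor (log2 -0.80 and 0.21). No direction is therefore given for Mtf1. A measure of the error of one probe set comes from genes with a pair of probe sets, as the SD of their difference over the square root of the number in a pair. By mean signal over the arrays, this SD of log2 D5/D1 was 0.51 at 20 to 50, 0.29 at 50 to 200 and 0.22 at 200 to 1000. For log2 D5+/D5 it was 0.45, 0.27 and 0.16. Mt2A and Mt3 lay in the last range. Such pairs share one RNA, so this SD leaves out the spread between cultures.

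The zinc transporters of the SLC30 family stayed within 2-fold in both comparisons. Slc30a1, the exporter of the plasma membrane, read 21.2 at D1, 30.8 at D5 and 29.5 at D5+ (log2 0.54 and -0.06). Slc30a3, the vesicular transporter, read 41.1, 41.4 and 35.9 (log2 0.01 and -0.21). Slc30a4 read 183.1, 222.2 and 178.0 on its brightest probe set (log2 0.28 and -0.32). Against the SD of a probe set at their mean signal, 0.51 and 0.45 for Slc30a1 and Slc30a3 and 0.29 and 0.27 for Slc30a4, these differences were near it or below. The other probe set of Slc30a4, at 8.2, 13.4 and 11.8, was under the floor on all arrays. All 3 transporters and Mtf1 were in group B2, which is neither induced nor inhibited.

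By these values 3 of 7 members (Mt1, Mt2A and Mt3) were past 2-fold lower in D5+ than in D5, against 6.03% of all expressed genes, and 0 were past 2-fold higher, against 2.12%. With signals under the floor set to it, 2 remained, Mt2A and Mt3. Counted as probe sets, 3 of 9 expressed ones were lower, against 6.38% of all expressed probe sets with 1 symbol. The metallothioneins chose the set through this very contrast, so nothing is read from these counts. From D1 to D5, 1 of 7 members (Mt3) was past 2-fold higher and 0 were past 2-fold lower, against 9.57% and 9.95% of expressed genes. The share of higher genes among those past 2-fold in D5/D1 depended on the scale: it was 49.0% for signals as deposited and 62.5% to 63.5% after scaling the arrays to a common level. The median log2 ratios over the members were 0.29 for D5/D1 and -0.32 for D5+/D5, beside -0.18 and -0.13 over all expressed genes.

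**Figure D3:**
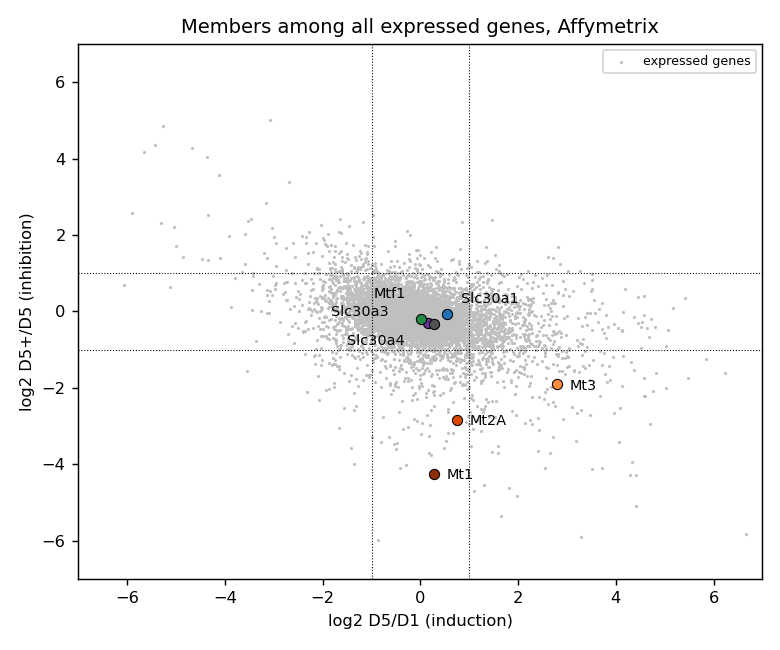
Induction (log2 D5/D1, horizontal axis) against inhibition (log2 D5+/D5, vertical axis) of expressed genes (grey points), with the members as large labelled points and dotted lines at 2-fold and 0.5-fold; 2 genes lie outside the axes. Mt2A and Mt3 lie below the lower boundary at -2.84 and -1.91, Mt1 lies lower still on a D5+ signal under the floor, and Mtf1 and the transporters lie near the centre.

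The two-colour arrays read RNA of the same kinds of culture on other probes. Their values are log ratios whose base is not stated, so signs and ranks are given. D5 was in Cy5 on both arrays, with no dye swap. A dye effect of a probe would enter both ratios with the same sign and cannot be told from a difference between cultures. For D5 over D5+, Mt3 read 0.96, above 99.0% of probes, and Mt2A read 0.50, above 96.2% of probes. Mt1 read 0.03, above 56.4% of probes and thus near the middle of the array. Read as log2 the first 2 values would be 1.94-fold and 1.42-fold, and read as natural logs 2.60-fold and 1.65-fold. The size cannot be set against the Affymetrix folds while the base is unknown. The order of Mt2A and Mt3 in D5 over D5+ also differed between the platforms.

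The remaining members lay on both sides of 0 in D5 over D5+. Slc30a4 read 0.11 and Slc30a1 0.01. Both Mtf1 probes were negative, at -0.13 and -0.52, which is higher in treated cells and opposite to its brightest Affymetrix probe set. Both Slc30a3 probes were negative too, at -0.02 and -0.74, and the second was below all but 1.99% of probes. Since the first read close to 0, the Slc30a3 probes did not give a common size. Gene means were above 0 for 5 of 7 members, against 51.0% of genes on the array.

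For D5 over D1, gene means were above 0 for 7 of 7 members, against 51.8% of genes on the array, and 8 of 9 probes were above 0. Mt3 was highest, at 0.70, above 93.8% of probes. Slc30a4 followed at 0.39 and Slc30a1 at 0.25, while Mt1 was at 0.14 and Mt2A at 0.05. Slc30a3 probes read 0.03 and 0.30, and Mtf1 probes 0.15 and -0.14. Every value was within the 5th to 95th percentile of the array (-0.52 to 0.80). The sign of D5/D1 was the same on both platforms for 7 of 7 members, but the share of all genes with the same sign was not computed. For Slc30a3 the Affymetrix log2 ratio was only 0.01, and for Mtf1 the two-colour mean was 0.006 and its probes and probe sets disagreed, so these signs carry little. For D5 against D5+ the sign was the same for 5 of 7, with Mtf1 and Slc30a3 opposite. Of the 5, Slc30a1 was near 0 on both platforms (0.01 and 0.06). Mt1 was near 0 on the two-colour array (0.03) and under the Affymetrix floor at D5+. These signs carry little too. The share of all genes was not computed here either, so nothing is read from the counts of equal signs.

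**Figure D4:**
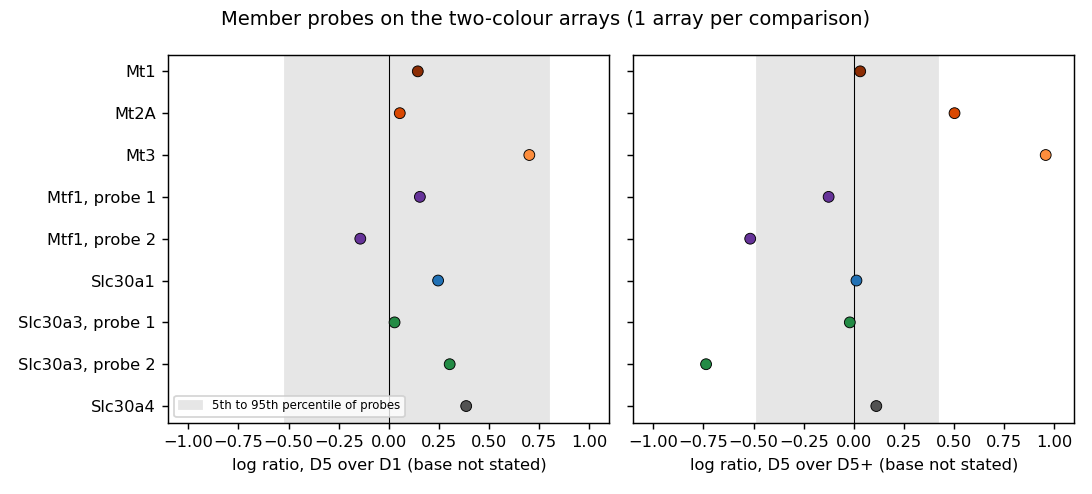
Log ratios (base not stated) of each member probe for D5 over D1 (left) and D5 over D5+ (right), 1 array per comparison; the grey band runs from the 5th to the 95th percentile of all probes. In D5 over D5+ Mt2A (0.50) and Mt3 (0.96) lie to the right of the band, and 1 probe each of Mtf1 (-0.52) and Slc30a3 (-0.74) lie to its left.

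Most expressed astrocyte markers were lower in D5+ than in D5, while some were higher. Since Mt1 and Mt2A are known from astrocytes, the values of these markers are given here. Of 18 listed markers, 17 were on the array and 14 were expressed. Of these, 9 were past 2-fold lower in D5+ than in D5 and 0 were past 2-fold higher, against 6.03% and 2.12% of all expressed genes. Their median log2 D5+/D5 was -1.64. From D1 to D5, 4 were past 2-fold higher and 0 lower, against 9.57% and 9.95%. Gfap, the intermediate filament of astrocytes, read 1016.1 at D1, 1511.9 at D5 and 167.0 at D5+. Slc1a3, a glial glutamate transporter, read 1084.1, 1170.4 and 247.2 on its brightest probe set (log2 D5+/D5 -2.24). Its other probe sets had log2 D5+/D5 of -2.25 and -0.60, the last not past 2-fold. Aqp4, the water channel of astrocyte endfeet, read 621.3, 523.9 and 64.2. These markers, like Mt2A and unlike Mt3, were lowest in treated cells and below their day 1 level.

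The 5 remaining expressed astrocyte markers were not past 2-fold lower. Gja1, a gap junction protein, read 469.2, 921.2 and 1062.8, and S100b, a calcium-binding protein, read 120.8, 339.3 and 512.9. Fgfr3, a growth factor receptor, read 26.5, 42.8 and 79.2. All of these were highest in treated cells. Fabp7, a fatty acid binding protein of radial and Bergmann glia, read 848.0, 1333.8 and 790.7, and Glul, the glutamine synthetase, read 836.0, 871.2 and 714.9. These last had the order of Mt2A, with smaller differences. Slc1a2 and Gjb6, which mark mature astrocytes, were under the floor on all 3 arrays. Summed over the list, the signal was 5765.9 at D1, 7973.0 at D5 and 4024.9 at D5+. On the two-colour array, D5 over D5+ was above 0 for 12 of 15 measured markers, against 51.0% of genes on the array. The median was 0.21. Gfap at 2.29 and Slc1a3 at 2.32 were the highest, while Aqp4 read 0.25. S100b (-0.72), Aldh1l1 (-0.20) and Fgfr3 (-0.002) were below 0. The part that astrocytes have in the metallothionein differences was not tested. In RNA from whole cultures, fewer cells of a type and less RNA per cell cannot be told apart.

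**Figure D5:**
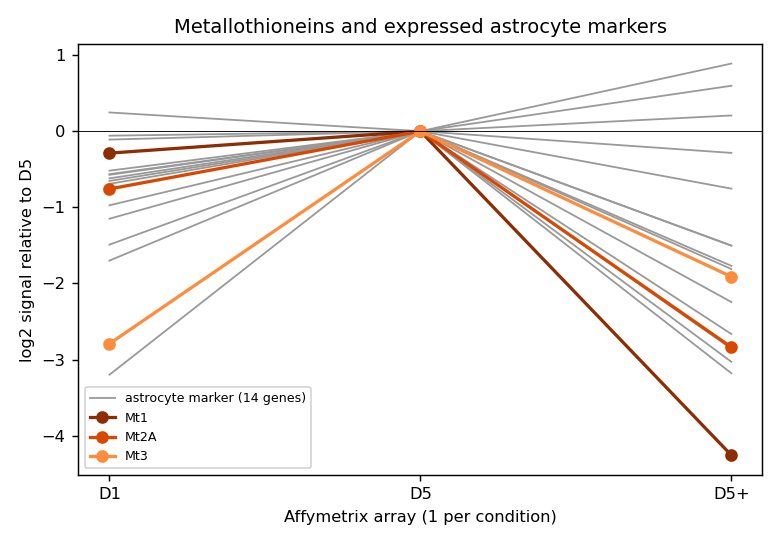
Log2 signal relative to D5 on the D1, D5 and D5+ arrays for Mt1, Mt2A and Mt3 (coloured) and 14 expressed astrocyte markers (grey). Of the markers, 9 fall below -1 in D5+, the range that holds Mt2A (-2.84) and Mt3 (-1.91), and 3 rise above 0; the D5+ point of Mt1 is under the floor of its array.

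Marker lists of other cells had smaller or opposite medians. The median log2 D5+/D5 was -0.19 over 11 granule neuron markers, -0.38 over 10 microglial markers and 0.55 over 7 oligodendrocyte markers. Of the granule neuron markers, 2 were past 2-fold lower in D5+, Gabrd and Reln, against 6.03% of all expressed genes. Of the microglial markers 0 were past 2-fold in D5+/D5, the lowest being Itgam at -0.96. For these, two-colour D5 over D5+ was above 0 for 7 of 8 measured, against 51.0% of genes on the array. The median was 0.68 over 10 endothelial, mural and meningeal markers, whose summed signal was 643.2 at D1, 2503.4 at D5 and 5968.5 at D5+. That sum was carried by the collagens Col1a1, Col1a2 and Col3a1, which were highest in treated cells. With Lum (22.1, 38.9 and 121.2) they made up the 4 of 10 past 2-fold higher in D5+/D5, against 2.12% of all expressed genes. Past 2-fold lower were 0, against 6.03%. Of the vessel markers, Rgs5 (25.4, 27.8 and 20.9) was lowest in treated cells. Acta2 (175.5, 405.6 and 650.2) and Pdgfrb (17.7, 24.3 and 39.0) were highest there. Kdr (28.1, 18.7 and 15.3) and Tek (14.4, 17.9 and 13.3) were under the floor in treated cells. At D1, Tek and Pdgfrb were under it as well. Flt1 (12.8, 10.3 and 36.2) was above the floor in treated cells only, and Cldn5 (38.1, 7.3 and 8.2) at D1 only. Pecam1 and Vwf were under the floor on all arrays. The part of these cells in the metallothionein differences was not tested either.

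Other zinc transporters were read on the same arrays. Of all expressed genes, 6.03% were past 2-fold lower and 2.12% past 2-fold higher in D5+/D5. In D5/D1, 9.57% were past 2-fold higher and 9.95% past 2-fold lower. The counts of these lists stand beside those shares. Of 10 listed SLC30 exporters 8 were expressed, and 0 were past 2-fold in any direction in either comparison. The largest D5+/D5 change among them was that of Slc30a7, a transporter of the early secretory pathway, at 38.6, 29.0 and 21.6 (log2 -0.43). Of 14 listed SLC39 importers 10 were expressed, and 2 were past 2-fold lower in D5+ than in D5. These were Slc39a4, the intestinal zinc importer, at 9.2, 17.2 and 4.5, and Slc39a8, which carries zinc and manganese, at 21.0, 34.5 and 15.5. On the two-colour array, D5 over D5+ was -0.23 for Slc39a4, the opposite direction, and 0.12 for Slc39a8, the same direction. Both genes were under the Affymetrix floor in D5+, so these folds have no measured size. With so few genes a list's count, 0 included, says little against the shares over all expressed genes. Mt4 was under the floor on all 3 arrays at 1.3, 5.5 and 1.5.

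Genes that handle copper and iron had 1 gene each past 2-fold lower in D5+, beside 6.03% of all expressed genes. Of 11 expressed copper genes it was Cp, the copper ferroxidase ceruloplasmin, at 617.0, 464.5 and 214.9 (log2 D5+/D5 -1.11). Its other probe sets read -1.31 and -1.23, and its two-colour D5 over D5+ ratio was 0.80. The copper exporter Atp7a read 153.7, 97.4 and 138.4 and the copper chaperone Ccs 158.2, 142.8 and 107.9. Of 8 expressed iron genes it was Heph, the membrane-bound relative of ceruloplasmin, at 34.3, 47.3 and 21.2 (log2 -1.16), with a two-colour ratio of 0.99. The iron and metal importer Slc11a2 read 210.9, 177.7 and 115.6. Both genes past 2-fold encode multicopper ferroxidases, and no direction over a whole list follows from 1 gene in each on the Affymetrix arrays. On the two-colour array, D5 over D5+ was above 0 for 8 of 11 measured iron genes (median 0.34). Slc40a1, Aco1 and Ireb2 were below 0. Of the copper genes 5 of 8 were above 0 (median 0.04). The share over all genes on that array was 51.0%.

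Metallothionein genes are also known to respond to oxidative stress and to glucocorticoids, so genes of those responses were read on the same arrays. Of 16 expressed oxidative and electrophile stress genes, 0 were past 2-fold in D5+/D5, against 6.03% lower and 2.12% higher among all expressed genes. From D1 to D5, 5 were past 2-fold lower and 0 higher, against 9.95% and 9.57%. Hmox1, the inducible heme oxygenase, read 402.2 at D1, 137.2 at D5 and 90.4 at D5+, and was thus highest at D1. The list's median log2 ratios were -0.65 for D5/D1 and -0.18 for D5+/D5. Of 11 expressed glucocorticoid-responsive genes, 0 were past 2-fold in D5+/D5, with a median of 0.00. In D5/D1, 2 of them were past 2-fold higher and 2 lower, against 9.57% and 9.95% of all expressed genes. Per1, a clock gene that glucocorticoids induce, read 37.0, 92.1 and 51.3, and Tsc22d3, another induced gene, read 170.0, 94.0 and 164.2. Within this list the genes thus went in opposite directions. The part of either response in the metallothionein values was not tested.

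Slc30a3 works in vesicles that also carry the glutamate transporter Slc17a7, the one that marks mature granule cells, and its sorting uses the adaptor complex AP-3. Slc17a7 read 290.7 at D1, 1369.3 at D5 and 774.0 at D5+ (log2 2.24 and -0.82), a rise in culture that Slc30a3 did not have. Slc17a6, the glutamate transporter of immature granule cells, read 63.5, 7.5 and 242.4, with D5 under the floor. Among all 10 expressed partners, 1 was past 2-fold higher and 0 lower in D5+/D5, against 2.12% and 6.03% of all expressed genes. The median was -0.12.

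The genes next to Mt1, Mt2A and Mt3 were also read. Of 16 protein-coding genes annotated within 8 places on either side, Mt4 among them, 12 were on the array and 9 were expressed. In D5+/D5, 0 of these 9 were past 2-fold, beside 6.03% lower and 2.12% higher among all expressed genes, with log2 ratios from -0.74 to 0.23. Nup93, a nuclear pore protein and the neighbour on one side, read 246.6, 96.9 and 98.7. Bbs2, a gene of primary cilia and the nearest expressed neighbour on the other side, read 80.2, 67.5 and 78.9. The lowest ratio was that of Gnao1, a G protein subunit abundant in neurons, at 315.9, 548.0 and 327.9. From D1 to D5, 1 of the 9 (Nup93) was past 2-fold lower and 2 were past 2-fold higher, against 9.95% and 9.57% of all expressed genes. Cpne2 (17.6 and 35.4) and Ces5a (8.1 and 19.1) were past 2-fold higher as deposited, but both were under the floor at D1, so these folds have no measured size.

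The expressed genes most like Mt2A and Mt3 were found by the distance over log2 D5/D1 and log2 D5+/D5, which rests on 3 arrays only. Within a distance of 0.5 there were 12 genes for Mt2A and 15 for Mt3. Nearest to Mt2A were Astn2 (0.07), Galnt18 (0.18), Sstr1 (0.24), Kcnh1 (0.26) and Fstl5 (0.28). Fstl5, a follistatin-like protein, read 548.6, 813.6 and 130.9, and Kcnh1, a voltage-gated potassium channel, read 93.5, 186.8 and 24.4. Astn2, Galnt18 and Sstr1 had D5+ signals under the floor, and Sstr1 was under it at D1 as well. Nearest to Mt3 were Alox12e (0.07), Col19a1 (0.11), Usp2 (0.14), Trpm3 (0.24) and Kcnab1 (0.28). Kcnab1, a subunit of voltage-gated potassium channels, read 102.4, 604.5 and 179.5, while Alox12e and Trpm3 were under the floor at D1 and at D5+. On the two-colour arrays, Alox12e read -0.64 for D5 over D1 and -0.32 for D5 over D5+, both opposite in sign to Mt3. Kcnab1 read 1.73 and 1.23, the signs of Mt3. Mt2A and Mt3 themselves were 2.23 apart, so each had many genes nearer to it than the other. Mt1 had 0 genes within 0.5, and its nearest, Gcnt4, Islr, Map2k3os, Fuom and Sox7, all had D5+ signals under the floor.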

How the data were processed

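The deposited Affymetrix values are linear signal intensities, which the authors computed by MAS5 within GCOS (no version given in the sources used here). For the two-colour arrays, log ratios were deposited, with base and normalization also not given. Members and lists were chosen with earlier results of these data known. Symbols came from the array annotation (20826 probe sets with 1 symbol, 436 with several, 9780 with none), checked against RefSeq GRCr8 names. After leaving out 57 controls, a probe set was called absent on an array below its 40th percentile, and unexpressed if absent on D5 and on at least 1 of the other arrays. Detection calls were not used here. The brightest probe set stood for a gene, and a signal of 0 was read as 0.1. Two-colour values were averaged over the probes of a gene. Named genes were all members, up to 4 expressed genes per list with the largest D5+/D5 change, nearest genes, expressed neighbours and the 6 brightest astrocyte markers. Markers of other cells, S100b, Fgfr3, Aldh1l1 and markers under the floor were named after their values were seen. Promoter windows were restricted to the 250 bases before the start. Python 3.11.15, pandas 2.3.3 and numpy 2.4.6 were used, and the calling step was tested on simulated data. The number of arrays limits the precision. Alternatives covered the floor, the fold, the scaling, an added offset, probe set choice and two-colour centring.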

Additional observations from a re-analysis of the deposited data

How the results depend on the processing

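Of 7 members, 1 was past 2-fold higher at D5 than at D1, and 2 were at a 1.5-fold threshold, where Mt2A joined Mt3. The count lower with ICRF-193 was 3 at every other setting tried, but 2 with the floor at the 60th percentile or with signals under the floor set to it, an alternative chosen after seeing the data. In both, Mt1 was the gene lost. Over the scalings and the added offset, log2 D5+/D5 ran from -2.84 to -2.66 for Mt2A, from -1.91 to -1.76 for Mt3 and from -4.25 to -1.12 for Mt1. For Slc30a1 it ran from -0.06 to 0.04, and log2 D5/D1 of Slc30a3 ran from -0.05 to 0.19, so neither sign is settled, and the median over probe sets turned the sign of Mtf1 (log2 D5/D1 -0.36, log2 D5+/D5 0.21). The two-colour counts were 5 and 7 under each alternative. A comparison of the metallothionein proteins was not run. No paired analysis was possible because each condition had 1 array.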
